A study of Homo sapiens with 40 samples.

Results

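The Wnt pathway genes examined here were 41 of the 20020 protein-coding genes in GENCODE 44: the 19 Wnt ligands and 10 Frizzled receptors, chosen by gene symbol, and 12 further pathway genes chosen by name (LRP5, LRP6, AXIN1, AXIN2, CTNNB1, LEF1, TCF7, APC, DKK1, DKK3, RNF43 and ZNRF3). The chromatin regions described are their H3K27ac and CTCF peaks. A peak was given to a gene if it lay within 2 kb of a start site (a promoter peak), elsewhere in the gene, or within 100 kb with that gene's start site as the nearest. This gave 127 of 51489 H3K27ac peaks and 137 of 51457 CTCF peaks. WNT6 and WNT10A shared 1 CTCF peak, and every other peak belonged to 1 gene.

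Wnt proteins are secreted ligands that bind Frizzled receptors together with the co-receptors LRP5 and LRP6. Without a signal, a destruction complex that contains AXIN1, AXIN2 and APC holds the level of beta-catenin (CTNNB1) low, and with a signal beta-catenin enters the nucleus and acts through DNA-binding factors of the TCF/LEF family such as LEF1 and TCF7. RNF43 and ZNRF3 remove Frizzled receptors from the cell surface, and DKK1 blocks LRP5 and LRP6. In the pancreas the pathway is known for its part in growth and development, and its ligands also act through routes that do not use beta-catenin.

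The cells were EndoC-βH3, an established human beta-like line with genotype given as WT, whose immortalizing transgene can be cut out by a CreER recombinase that tamoxifen activates. The senescent state was made by 3 weeks of 4-hydroxytamoxifen (4-OHT), and untreated cells of the same line, which carry the same transgene and recombinase, were the non-senescent state. Chromatin immunoprecipitation followed by sequencing (ChIP-seq) was done with antibodies to H3K27ac, a histone acetylation found at active promoters and enhancers, and to CTCF, a DNA-binding protein that shapes chromatin loops, with 3 libraries per state for each. Both states come from 1 line, and the agent, the loss of the immortalizing transgene and senescence cannot be told apart. The labels do not say whether libraries were separate cultures, so p-values measure only the spread between these libraries. The beta-cell label was checked at 22 marker genes: all 10 beta-cell markers (among them INS, PDX1 and PAX6) had an H3K27ac promoter peak, as did 3 of 12 markers of other cell types (SST, CPA1 and KRT19).

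All values below come from the authors' deposited comparison of senescent with non-senescent libraries by DESeq2: a mean normalized read count over the 6 libraries, a log2 fold change with its standard error (SE), and a Benjamini-Hochberg adjusted p, which was given for every H3K27ac peak and was missing for 11972 of the CTCF peaks. Gained and lost peaks had to pass the study's thresholds, which were a fold change above 1.5 together with an adjusted p under 0.05 for H3K27ac and under 0.2 for CTCF. The values are summaries over libraries, so levels are given as the mean per state that the mean count and the fold change imply, and single libraries were not analyzed here. The median count per peak was 120.6 in H3K27ac peaks of Wnt genes and 118.7 in all H3K27ac peaks, and 55.2 and 58.6 for CTCF. The median SE at Wnt genes was 0.19 for H3K27ac and 0.31 for CTCF, so CTCF changes were measured less precisely. In bulk chromatin, a change in the share of cells that carry a mark and a change in its amount per cell cannot be told apart.

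The promoters of WNT5B, WNT9A and FZD5 are shown first, because each spans a start site where H3K27ac changed. The 250 bases before the start are from RefSeq (GRCh38.p14), where 29 of the 41 genes had an entry. Capitals mark the core letters of the CTCF motif, CCANNAGNNGGC, read on either strand; the TCF/LEF letters CTTTGAT or CTTTGAA were also searched on both strands and were not in these windows.
WNT5B promoter (chr12:1628981-1629230, + strand): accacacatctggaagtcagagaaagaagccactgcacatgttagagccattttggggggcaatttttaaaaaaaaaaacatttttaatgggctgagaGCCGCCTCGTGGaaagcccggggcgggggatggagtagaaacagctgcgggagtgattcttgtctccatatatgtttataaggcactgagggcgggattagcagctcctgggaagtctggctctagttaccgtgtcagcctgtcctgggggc
WNT9A promoter (chr1:227947933-227948182, - strand): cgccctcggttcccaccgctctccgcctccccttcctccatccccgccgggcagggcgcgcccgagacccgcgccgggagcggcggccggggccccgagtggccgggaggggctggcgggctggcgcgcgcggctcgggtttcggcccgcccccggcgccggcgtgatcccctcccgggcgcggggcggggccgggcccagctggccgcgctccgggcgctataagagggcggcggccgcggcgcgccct
FZD5 promoter (chr2:207769907-207770156, - strand): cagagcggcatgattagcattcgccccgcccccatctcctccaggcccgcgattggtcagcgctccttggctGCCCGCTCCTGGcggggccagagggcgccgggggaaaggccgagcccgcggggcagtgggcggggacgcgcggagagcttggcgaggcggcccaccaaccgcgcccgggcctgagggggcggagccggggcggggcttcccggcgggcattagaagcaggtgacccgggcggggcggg

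These promoters differed in base composition. The WNT5B window was 50.8% G and C with 7 CpG dinucleotides, against 84.4% and 44 for WNT9A and 76.8% and 30 for FZD5. The medians over 34943 RefSeq promoters were 58% and 11. The CTCF core was in 2.02% of those promoters and a TCF/LEF motif in 5.96%.

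H3K27ac was gained at 8 of the 127 peaks of Wnt genes and lost at 14 in senescent cells. Over all H3K27ac peaks 9.47% were gained and 13.1% lost, against 6.30% and 11.02% at Wnt genes, so the shares were near the background and slightly below it. The median log2 fold change was -0.037 at Wnt genes and 0.0075 over all peaks. At promoters, 1 peak of 24 was gained and 3 were lost, where 4.53% and 9.81% of all promoter peaks were. By gene, 7 had gained peaks alone, 8 had lost peaks alone, APC had both, 15 had peaks without a call and 10 had no H3K27ac peak. In the plot of all peaks the called Wnt peaks lie within the cloud of the other peaks.

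**Figure D1:**
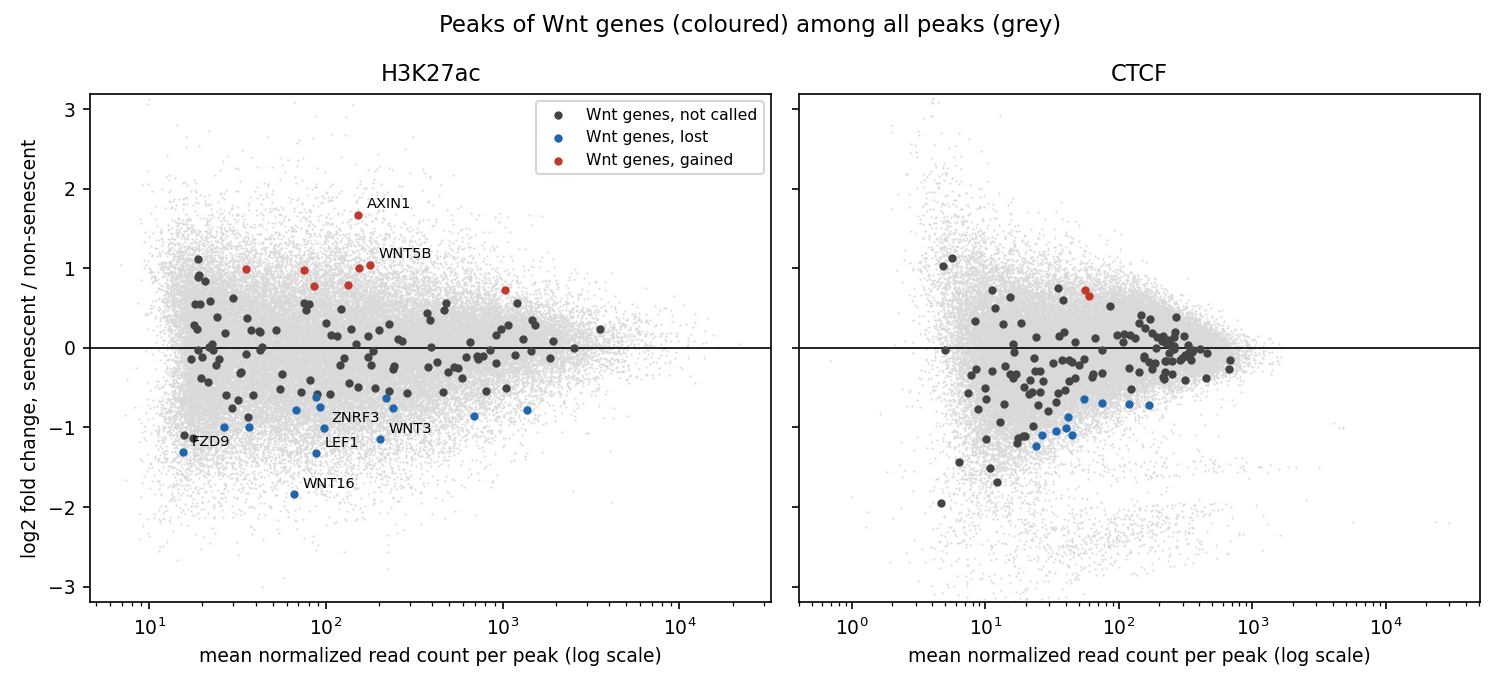
Log2 fold change (senescent over non-senescent) against mean normalized read count on a log axis, for H3K27ac (left) and CTCF (right); light grey points are all peaks, and peaks of Wnt genes are red (gained), blue (lost) or dark grey (not called). The H3K27ac peaks of Wnt genes run from -1.84 (WNT16) to 1.68 (AXIN1); 1 H3K27ac and 87 CTCF peaks of the grey cloud lie outside the axis limits of ±3.2.

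Of the ligands, 4 had an H3K27ac promoter peak (WNT3, WNT4, WNT5B and WNT9A), and 3 of these changed. At the WNT5B promoter (chr12:1629021-1631304) the mean count was 116.5 in non-senescent and 240.8 in senescent cells. WNT5B, a ligand best known for signaling without beta-catenin, thus gained H3K27ac at this start site (log2 fold change 1.05, SE 0.16, adjusted p = 1.42e-09). A further RefSeq start of WNT5B lies 11.96 kb upstream of the peak, and WNT5B had no other H3K27ac promoter peak. The other WNT5B peaks, all inside the gene, had log2 fold changes of 0.28, 0.55 and 0.63 and were not called. The first of these also covers the start site of FBXL14, a gene that overlaps WNT5B.

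At the WNT9A promoter (chr1:227944961-227948384), which the peak covers, the count was 302.2 in non-senescent and 178.9 in senescent cells, a loss (log2 fold change -0.76, SE 0.13, adjusted p = 1.46e-07). At WNT3 the count went from 280.8 to 126.6, also a loss (-1.15, SE 0.15, adjusted p = 2.40e-13). The WNT3 peak (chr17:46770645-46772623) lies at a start site of a transcript that begins inside the gene, 46.1 kb from the RefSeq start, and WNT3 had no H3K27ac peak at the latter. It also overlaps an enhancer that the deposited lists, which come from the same libraries, hold for senescent cells alone, a class in which 1200 of 2623 peaks were gained and 55 lost. H3K27ac fold changes were lower in GC-rich peaks, and both promoters are GC-rich (68.3% and 70.3%). When the median fold change of all H3K27ac peaks of the same GC content was subtracted, WNT9A was at -0.49 and no longer past the fold change, and WNT3 was at -0.81 and still called.

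Outside promoters, H3K27ac changed at 3 ligands. The largest loss of all Wnt peaks, as a log2 fold change, was upstream of WNT16, in an intergenic peak (chr7:121313614-121314977) whose count fell from 103.7 to 29.1 (log2 fold change -1.84, SE 0.30, adjusted p = 1.15e-08). A peak nearest to WNT5A, inside the neighboring gene ERC2, was lost (chr3:55563431-55566018, counts 266 and 171.9, log2 fold change -0.63, SE 0.14, adjusted p = 3.04e-05). WNT5A itself, the close relative of WNT5B, had no H3K27ac promoter peak. A peak nearest to WNT2B, inside ST7L, was gained from a low count (chr1:112549255-112549960, 23.6 and 47.2, log2 fold change 1.00, SE 0.34, adjusted p = 0.0105).

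The remaining ligands showed no call. WNT4 had 10 H3K27ac peaks, more than any other ligand, with log2 fold changes from -0.52 to 0.55 and with 2 promoter peaks at -0.11 (95% interval -0.29 to 0.07) and 0.17 (-0.0052 to 0.34). A WNT4 peak with a mean count of 1050 was lower, short of the fold threshold (-0.50, SE 0.077, adjusted p = 8.19e-10). In the deposited DESeq2 test 1 WNT4 peak was above and 1 below 0 at an unadjusted p under 0.05. WNT7B had 3 peaks, and WNT8B, WNT9B, WNT10A and WNT11 had 1 each. WNT1, WNT2, WNT3A, WNT6, WNT7A, WNT8A and WNT10B had none, so the deposited values say nothing of a change there.

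At the Frizzled receptors the promoter values lay on one side. All 6 promoters with an H3K27ac peak (FZD1, FZD3, FZD4, FZD5, FZD6 and FZD7) were lower in senescent cells, with log2 fold changes from -0.78 to -0.25. The adjusted p was under 0.05 at 5 of the 6, where 19.4% of all promoter peaks were lower at that adjusted p and 46% had a value below 0. FZD5 alone also passed the fold change. FZD1 (-0.56, SE 0.11, adjusted p = 2.79e-06) and FZD3 (-0.57, SE 0.12, adjusted p = 2.90e-05) were just short of it, at counts of 550.4 and 373.8 for FZD1 and 344.6 and 232.9 for FZD3. FZD7 was at -0.75 in a peak of few reads (37.2 and 22.1, adjusted p = 0.089), FZD4 at -0.44 (adjusted p = 0.0348) and FZD6 at -0.25 (adjusted p = 0.0245). With the GC trend subtracted all 6 stayed below 0, from -0.81 to -0.26, FZD4 no longer passed (adjusted p = 0.194) and FZD3 passed the fold change (-0.59). The FZD6 promoter peak was the only H3K27ac peak of a Wnt gene that overlapped one of the deposited regions where Rb, the retinoblastoma protein, was bound specifically in senescent cells. The share of all H3K27ac peaks with such an overlap is not given here, so this overlap is a description alone, and a link to the loss was not tested.

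**Figure D2:**
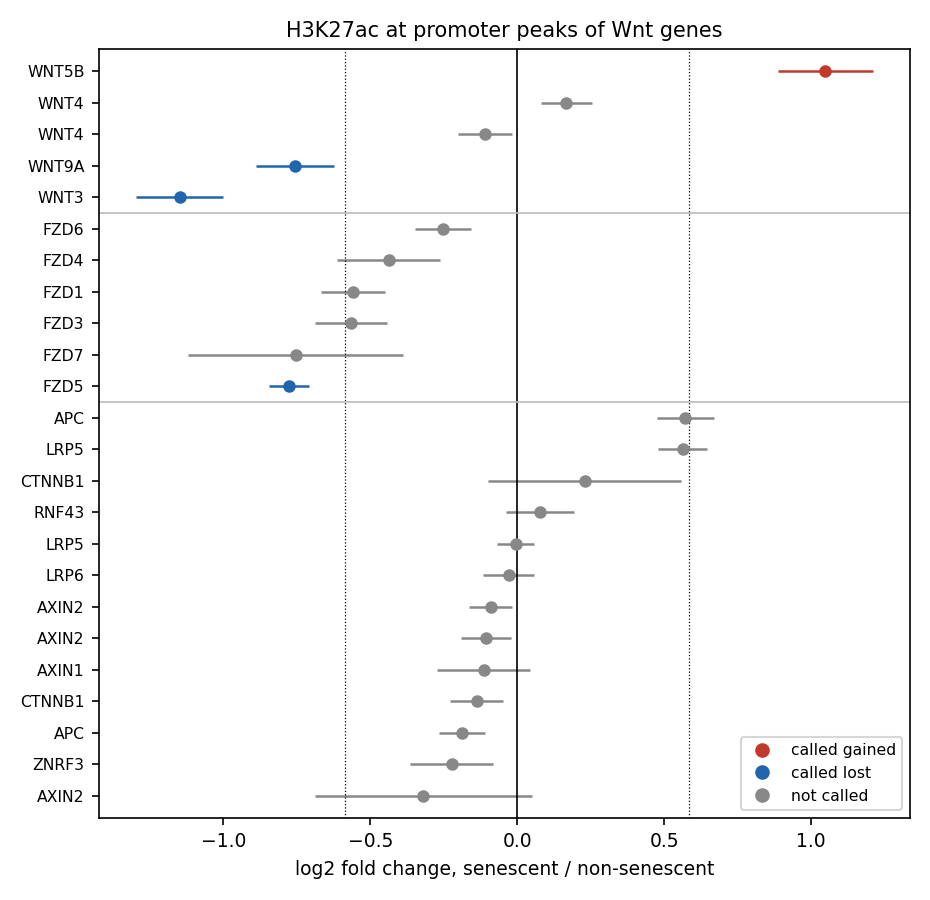
Log2 fold change of H3K27ac (senescent over non-senescent) for the 24 promoter peaks of Wnt genes, ligands at the top, Frizzled receptors in the middle, other genes below; bars are SEs, dotted lines the fold change of 1.5, and a gene with several promoter peaks has several rows. All 6 Frizzled promoters lie below 0, and WNT5B is the only gained peak.

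FZD5, a receptor for several ligands, held 5 of the 14 lost peaks. Its promoter peak (chr2:207763239-207771239), which covers the start site and an exon, was among the strongest by reads: the count fell from 1726 to 1007 (log2 fold change -0.78, SE 0.069, adjusted p = 1.85e-27). The second was 73440 bp upstream, inside PLEKHM3 (chr2:207843346-207848597), where the count fell from 890.5 to 494.3 (-0.85, SE 0.099, adjusted p = 2.43e-16). Smaller peaks between them were lost at -0.74 (adjusted p = 0.00276), -0.99 (adjusted p = 0.00913) and -0.61 (adjusted p = 0.0139). The other 5 H3K27ac peaks upstream of FZD5 were not called, and 1 of them had a value above 0 (0.14). Losses at FZD5 lay on both sides of peaks without a call, as the locus plot shows.

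At the other Frizzled genes, distal peaks went both ways. A strong intergenic peak nearest to FZD7 (chr2:201963747-201968814) was gained, with counts of 779 and 1295 (log2 fold change 0.73, SE 0.081, adjusted p = 6.43e-18), while the FZD7 promoter was at -0.75. A peak 91278 bp from FZD10 (chr12:130069542-130071181) was gained from 102 to 204.9 (1.01, SE 0.17, adjusted p = 1.71e-08), and FZD10 had no promoter peak. A weak peak nearest to FZD9 was lost (-1.31, SE 0.56, adjusted p = 0.0488, counts 22.2 and 8.94), and at an adjusted p of 0.0615 it was not called with the GC trend subtracted. FZD2 and FZD8 had no H3K27ac peak.

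The co-receptors and the destruction complex kept their promoter H3K27ac within the fold threshold. LRP5 had 22 H3K27ac peaks, the most of any Wnt gene, and 0 were called in the deposited DESeq2 test, with 2 above and 2 below 0 at an unadjusted p under 0.05. Its upstream promoter was nevertheless higher (970.5 and 1433, log2 fold change 0.56, 95% interval 0.40 to 0.73, adjusted p = 2.35e-10), short of the fold threshold, while the promoter peak with the most reads, at an internal start site, was at -0.0053 (-0.13 to 0.12). The LRP5 peak with the most reads of all, inside the gene, was at 0.24 (adjusted p = 0.0018). LRP6 was at -0.029 (-0.20 to 0.14). For CTNNB1 the strongest promoter peak was at -0.14 (-0.31 to 0.036), for AXIN1 at -0.11 (-0.43 to 0.20) and for AXIN2 at -0.090 (-0.23 to 0.054). These intervals exclude a 1.5-fold change of the strongest promoter peak at each of the 4 genes LRP6, CTNNB1, AXIN1 and AXIN2.

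AXIN1, a scaffold of the destruction complex, had the strongest gain by fold of all Wnt genes, inside the gene and not at its promoter. In this intronic peak (chr16:306259-308511) the count rose from 72.8 to 232.8 (log2 fold change 1.68, SE 0.17, adjusted p = 3.23e-20). The peak overlaps an enhancer listed for senescent cells alone. That list comes from the same libraries, and 1200 of the 2623 peaks of this class were gained, so the overlap is no separate evidence. A second AXIN1 peak was higher without reaching the fold threshold (0.47, adjusted p = 1.87e-05).

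APC, the other scaffold, changed in both directions. Its 2 promoters differed: the peak at the upstream start was at -0.19 (95% interval -0.34 to -0.036, adjusted p = 0.0413) and the one at the downstream start at 0.57 (0.38 to 0.76, adjusted p = 5.21e-08), which passed the fold threshold with the GC trend subtracted (0.59). An intronic peak (chr5:112809587-112811082) was gained from 50.7 to 100 (log2 fold change 0.98, SE 0.24, adjusted p = 1.84e-04). An intergenic peak 77853 bp from its start (chr5:112627935-112629665) was lost from 86.1 to 50.2 (-0.78, SE 0.25, adjusted p = 0.00651). AXIN2, which is also a target of the pathway in many cell types, had 3 promoter peaks and no call.

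RNF43 and ZNRF3, the membrane ligases that lower Frizzled at the surface, had no call at their promoters (log2 fold changes 0.078 and -0.22) and opposite calls inside the genes. In RNF43 an intronic peak (chr17:58363935-58365645) was gained from 62.6 to 107.8 (0.78, SE 0.23, adjusted p = 0.00259). In ZNRF3 an intronic peak (chr22:28923490-28924907), in an enhancer listed for non-senescent cells alone, was lost from 129.7 to 64.4 (-1.01, SE 0.21, adjusted p = 7.12e-06). That list too comes from the same libraries, and of the 4291 peaks of this class 1961 were lost and 89 gained. The secreted DKK3 had 1 uncalled peak (0.89, SE 0.47), and DKK1 had none.

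Neither nuclear factor had an H3K27ac promoter peak. LEF1 had 3 peaks, all inside the gene and all below 0. The strongest loss (chr4:108071890-108073387) went from 126.1 to 50.4 (log2 fold change -1.32, SE 0.23, adjusted p = 9.06e-08). It lay, like the ZNRF3 peak, in an enhancer listed for non-senescent cells alone, a list from the same libraries. A weaker LEF1 peak closer to the gene end was lost too (-0.99, adjusted p = 0.0314). At TCF7 an intergenic peak (chr5:134094023-134095828) was gained from 97.4 to 167.9 (0.79, SE 0.18, adjusted p = 8.22e-05). TCF7 had 3 H3K27ac peaks, and the others were below 0, at -1.09 and -0.40, and not called.

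**Figure D3:**
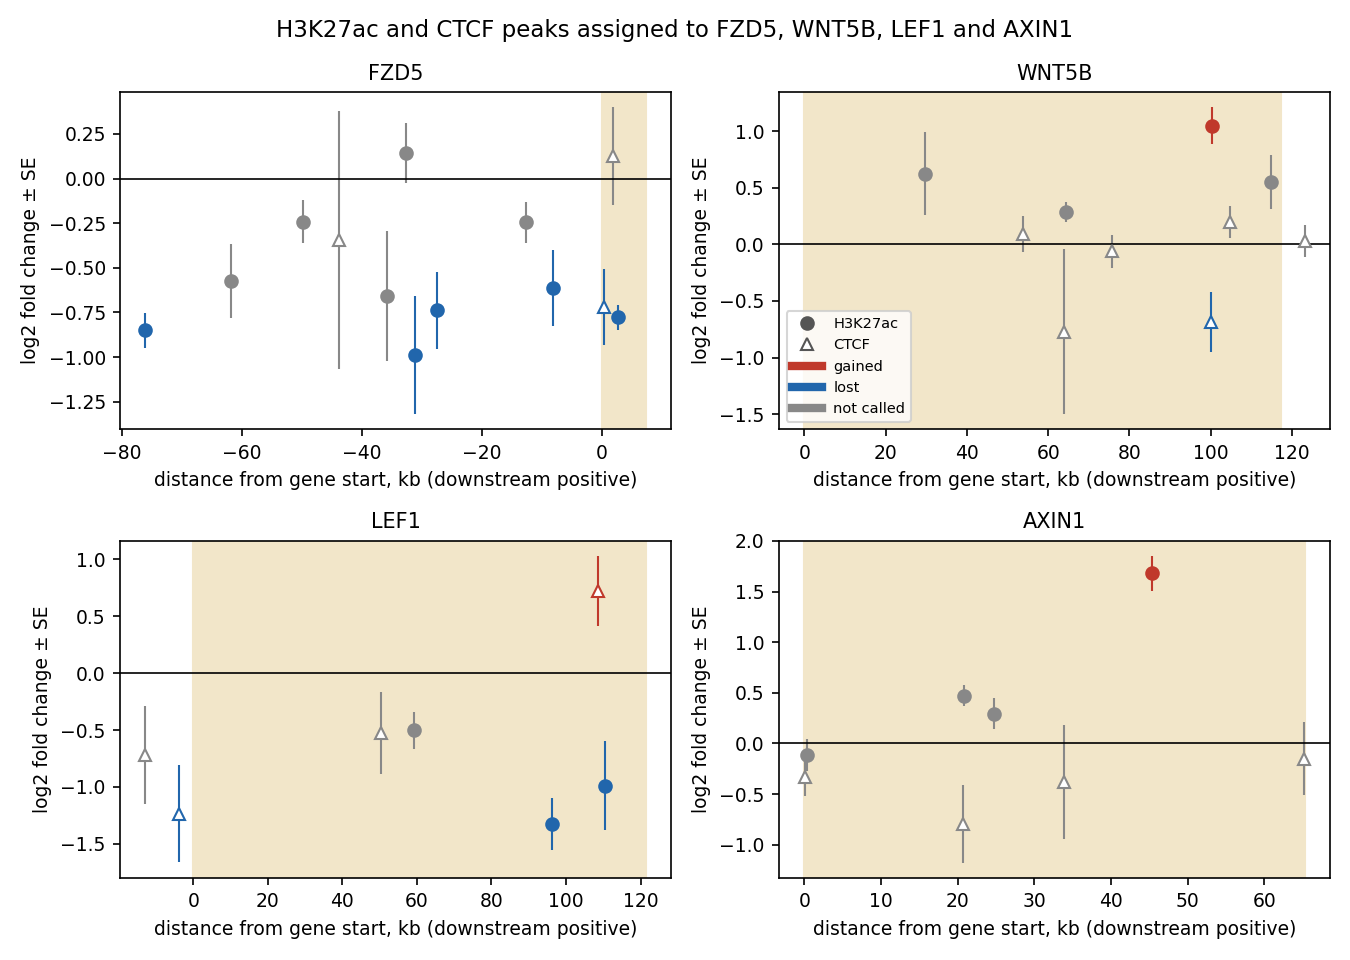
Log2 fold change ± SE of every H3K27ac peak (filled circles) and CTCF peak (open triangles) of FZD5, WNT5B, LEF1 and AXIN1, against the distance of the peak centre from the outermost gene start in kb; the shaded span is the gene. FZD5 shows losses spread over the upstream region, WNT5B opposite calls for the marks at one start site, LEF1 losses of H3K27ac deep in the gene, and AXIN1 a single gain in the gene body.

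The sequences around the TCF/LEF letters are shown for the called H3K27ac peaks that hold them, because they are the letters through which the pathway's own nuclear factors bind. The central 300 bases of each peak were searched for CTTTGAT or CTTTGAA on both strands. Among the 22 called peaks, 3 held a match (13.6%, against 10.7% of all called H3K27ac peaks), and all 3 were gained: the intronic peaks of APC and RNF43 and the peak nearest to WNT2B. The shares among all gained and all lost peaks are not given here, so nothing is drawn from this direction. The motif was in 9 of 127 peaks of Wnt genes (7.09%) and in 10.2% of all H3K27ac peaks, so it is common, and a match is a description and not a measured binding site. The windows are from hg38, turned so that the motif, in capitals, reads as spelled.
APC intron (chr5:112810172-112810228, - strand): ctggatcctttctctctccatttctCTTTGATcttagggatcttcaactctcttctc
RNF43 intron (chr17:58364782-58364838, + strand): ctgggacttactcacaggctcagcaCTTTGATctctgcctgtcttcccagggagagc
WNT2B nearest (chr1:112549702-112549758, + strand): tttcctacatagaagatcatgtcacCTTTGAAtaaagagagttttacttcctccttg

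CTCF was lost at 10 of the 137 peaks of Wnt genes and gained at 2 in senescent cells (adjusted p under 0.2). Over all CTCF peaks 3.28% were lost and 2.29% gained, against 7.30% and 1.46% at Wnt genes. At promoters, 6 of 39 peaks were lost and 0 gained, where 4.42% of all promoter CTCF peaks were lost and 0.488% gained. In the deposited DESeq2 test 10 of the 39 were below 0 and 0 above at an unadjusted p under 0.05. The median log2 fold change was -0.16 at Wnt genes, -0.012 over all CTCF peaks, -0.31 at Wnt promoters and -0.17 at all promoters. Of the 41 genes, 38 had a CTCF peak (all but FZD10, LRP6 and WNT2) and 28 had one at a promoter. An adjusted p was missing for 31 of the 137 peaks, which could not be called.

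The Frizzled promoters held 4 of the 6 promoter losses. CTCF at the FZD8 start site (chr10:35642125-35642970) went from 60.2 to 28.2 (log2 fold change -1.09, SE 0.35, adjusted p = 0.0495). The FZD8 promoter peak with the most reads (245.6 and 199.7) was not called (-0.30, SE 0.16, adjusted p = 0.307). At FZD1 CTCF went from 45.4 to 21.9 (-1.05, SE 0.38, adjusted p = 0.0888) and at FZD7 from 53.9 to 26.8 (-1.01, SE 0.42, adjusted p = 0.16). At the FZD5 start site (chr2:207768886-207770403), where reads were more numerous, it went from 210.8 to 128 (-0.72, SE 0.21, adjusted p = 0.0330). The CTCF peaks at FZD3, FZD4 and FZD9 were not called, and FZD2, FZD6 and FZD10 had none at the promoter. FZD9 had 2 CTCF promoter peaks, and the one with more reads was at -0.19 (adjusted p = 0.815). The other was at -1.95, the lowest value of any CTCF peak of a Wnt gene, but had no adjusted p and could not be called. The remaining promoter losses were at RNF43 (-0.87, SE 0.34, adjusted p = 0.131) and WNT5B (-0.69, SE 0.26, adjusted p = 0.12). The RNF43 promoter peak with the most reads (239.7 and 245.5) was not called (0.034, SE 0.15, adjusted p = 0.926).

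Of the 6 lost promoter peaks, those of the Frizzled genes and WNT5B were GC-rich (66.3% to 76.6%) and that of RNF43 was not (47.5%). In the deposited table CTCF fold changes were lower in peaks of higher GC content, and the median GC content was 66.2% at Wnt promoter CTCF peaks, 59.2% at all promoter CTCF peaks and 46.4% over all. The median of the fold changes found at the same GC content in CTCF peaks outside promoters, listed enhancers and H3K27ac peaks, was -0.33 at the Wnt promoters, against -0.31 for the Wnt promoters themselves. With that trend subtracted, 0 of the 39 promoter peaks were called (by the same Wald test, 3 were below 0 and 0 above at an unadjusted p under 0.05), and 1 peak of 137 was lost (0.730%) and 1 gained. In all CTCF peaks 1.68% were then lost and 0.915% gained, and in all H3K27ac peaks 13.1% and 9.22%. The trend spanned -0.34 to 0.20 for H3K27ac and -2.33 to 0.32 over all CTCF peaks. At the CTCF peaks of Wnt genes, GC-rich promoters included, it spanned only -0.35 to 0.28. The 4 lost Frizzled promoter peaks after subtraction were at -0.74 for FZD8, -0.70 for FZD1, -0.66 for FZD7 and -0.37 for FZD5, and none of them passed the adjusted p. WNT5B was at -0.35 (adjusted p = 0.643). RNF43 kept its fold change (-0.86) and missed the threshold at an adjusted p of 0.222.

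**Figure D4:**
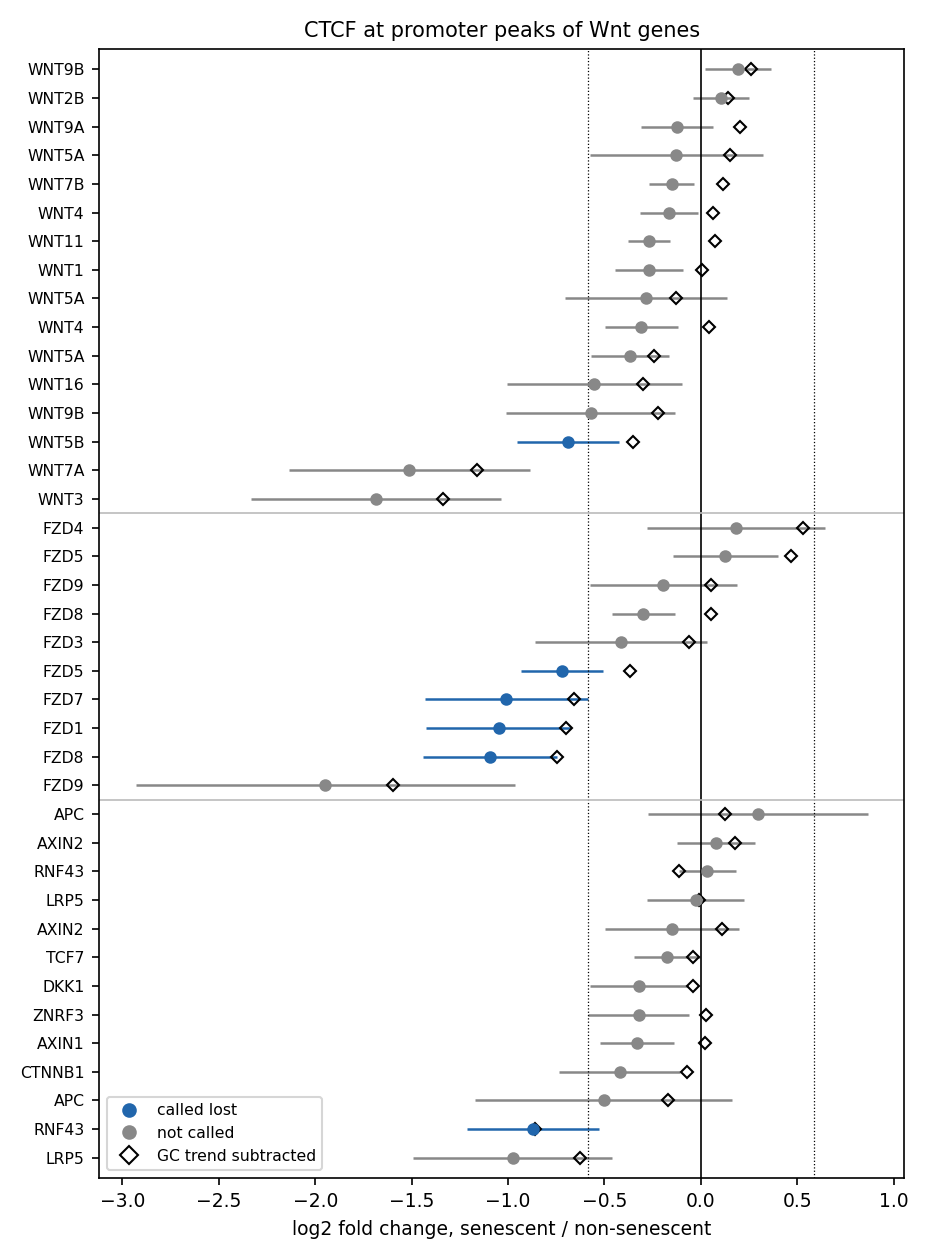
Log2 fold change of CTCF (senescent over non-senescent) for the 39 promoter peaks of Wnt genes, ligands at the top, Frizzled receptors in the middle, other genes below; circles with SE bars are the deposited values, open diamonds the values with the GC trend subtracted, and dotted lines the fold change of 1.5. Of the 39 deposited values 32 lie below 0, and at most promoters the diamond lies nearer to 0 than the circle.

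Outside promoters CTCF was lost in a WNT3 intron (chr17:46781898-46782959, counts 147.9 and 90.5, log2 fold change -0.71, SE 0.21, adjusted p = 0.0296), upstream of LEF1 (-1.24, SE 0.43, adjusted p = 0.0751), in the peak shared by WNT6 and WNT10A (-1.09, SE 0.48, adjusted p = 0.187) and nearest to WNT5A (-0.64, SE 0.28, adjusted p = 0.18). It was gained inside LEF1 (0.72, SE 0.31, adjusted p = 0.165) and nearest to TCF7 (0.65, SE 0.29, adjusted p = 0.194). The calls that held with the GC trend subtracted were the WNT5A loss (-0.86, adjusted p = 0.0926) and the TCF7 gain (0.76, adjusted p = 0.195). The gained CTCF peak of LEF1 lies beside the weaker of its lost H3K27ac peaks.

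The CTCF core is shown where it bears on these calls: the lost peak at the FZD5 start site, its uncalled neighbor in the same H3K27ac peak, and the lost peak nearest to WNT5A. These 2 lost peaks were the called CTCF peaks of Wnt genes that held the core, which was present in 40 of the 137 (29.2%) and in 23.6% of all CTCF peaks. Each line shows 30 bases of hg38 with the core in capitals.
FZD5 start site, lost (chr2:207770064-207770093, + strand): ctggccccgCCAGGAGCGGGCagccaagga
FZD5 neighbor, not called (chr2:207768017-207768046, + strand): caggcctatCCAGAAGGTGGCgaacgtgcg
WNT5A, lost (chr3:55434949-55434978, + strand): ctctgctgcCCACTAGGGGGCagctttggg

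The FZD5 start site core is the one seen, on the other strand, in the promoter window above. Its peak was at -0.72 and the neighboring peak, with a log2 fold change of 0.13 (SE 0.27), was not. The core in the WNT5B window lies before the start of the CTCF peak there, which held none.

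H3K27ac and CTCF were compared where their peaks overlapped. Of 44 such pairs, 34 had no call in either mark. FZD5 held the only overlapping pair in which both were lost, and WNT5B the only overlapping pair with opposite calls: CTCF (chr12:1629325-1630787) went from 92.9 to 57.6 within the H3K27ac peak that was gained. With the GC trend subtracted neither CTCF call held (FZD5 -0.37 and WNT5B -0.35), while the H3K27ac calls at both did. In peaks that did not overlap each other, both marks were also lost at WNT3, WNT5A and LEF1. FZD7 and RNF43 each had a gained H3K27ac peak and a lost CTCF peak apart from it, and LEF1 also had a gained CTCF peak. CTCF was lost under uncalled H3K27ac at FZD1, FZD7 and RNF43, and H3K27ac was lost over uncalled CTCF at WNT3, WNT9A, APC and the neighboring CTCF peak of FZD5. The gained distal peak of FZD7 also held an uncalled CTCF peak (0.14). At WNT3 the CTCF peak was at -1.69 with few reads (18.7 and 5.81) and no adjusted p.

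A further 62 genes of the pathway, listed by textbook role, had 237 H3K27ac peaks, of which 27 were gained and 41 lost (11.4% and 17.3%, against 9.47% and 13.1% of all H3K27ac peaks). Of their 228 CTCF peaks 5 were gained and 6 lost (2.19% and 2.63%), which is near the 2.29% and 3.28% of all CTCF peaks. At their promoters H3K27ac was gained at 0 of 52 peaks and lost at 8 (15.4%), where 4.53% and 9.81% of all promoter peaks were (in the deposited DESeq2 test, 13 were above and 14 below 0 at an unadjusted p under 0.05). Peaks of the destruction complex were gained at 7 of 27, of which 4 were at GSK3B, 2 at TNKS and 1 at BTRC, and lost at 1 (TNKS2). Apart from a GSK3B peak with a mean count of 71.8, these gained peaks had few reads, with mean counts of 14.4 to 30.2. The median over all H3K27ac peaks was 118.7. The GSK3B peak with a mean count of 14.4 was not called with the GC trend subtracted (adjusted p = 0.0685). Of 13 peaks of feedback and target genes 8 were lost, and these came from few genes: 4 at TNFRSF19, 2 at CD44 and 1 each at SOX9 and SP5. In the same DESeq2 test 0 of the 13 were gained (10 below and 0 above 0 at an unadjusted p under 0.05). AXIN2, with no call, and RNF43, with a gained peak, are also known as targets or feedback genes and were not in this group. The TCF/LEF partners and co-repressors had 14 of 69 lost and 3 gained.

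In that list the H3K27ac gains of smallest adjusted p were in ROR2 and nearest to CSNK1A1. CSNK1A1 is a kinase that marks beta-catenin for removal (log2 fold change 1.56, SE 0.19, adjusted p = 1.34e-14). ROR2 is a Wnt receptor that does not use beta-catenin, and its leading gained peak was at 1.23 (SE 0.10, adjusted p = 6.13e-32). Its next gains by adjusted p were at 1.01 and 0.97, and further ROR2 peaks were gained at larger adjusted p. In the group of other Wnt receptors 13 of 52 peaks were gained, at PTK7, ROR1 and ROR2, and 5 were lost, at ROR1. The related receptor ROR1 had a strong lost peak (-0.96, SE 0.091, adjusted p = 7.17e-24). The co-repressor TLE3 lost H3K27ac at its promoter (-1.44, SE 0.12, adjusted p = 2.10e-31) and inside the gene (-1.94, SE 0.20, adjusted p = 5.53e-21). TCF7L2, the TCF family member best known from islets, lost it 497 bp from a start site inside the gene (-2.05, SE 0.19, adjusted p = 6.96e-25). This TCF7L2 peak overlaps an exon and an enhancer listed for non-senescent cells alone (a list from the same libraries), and it is not at the upstream start of the gene. For CTCF, the leading peaks were gained in VANGL2 (0.66, adjusted p = 0.00976) and PRICKLE2 (0.64, adjusted p = 0.06), which act in planar polarity, and in RSPO2 (1.28, adjusted p = 0.00304), and were lost in LGR6 (-0.65, adjusted p = 0.00735) and at the promoters of TCF7L1 (-0.65, adjusted p = 0.036) and the inhibitor WIF1 (-0.73, adjusted p = 0.0441). With the GC trend subtracted RSPO2 kept its call (1.11, adjusted p = 0.0210), and the other 5 of these peaks did not: VANGL2 was at 0.57, PRICKLE2 at 0.56, LGR6 at -0.51, TCF7L1 at -0.32 and WIF1 at -0.38.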

How the data were processed

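H3K27ac and CTCF ChIP-seq was compared between 3 senescent and 3 non-senescent libraries per mark, out of 40 libraries, grouped by their labels. As the methods describe it, the authors used Trim Galore and Bowtie2 (hg38), found peaks over input by HOMER for H3K27ac and MACS2 for CTCF, filtered CTCF peaks for a motif, and ran DESeq2 on the read counts in peaks. Whether the deposited CTCF table is the filtered one is not stated: the core letters searched here were in 23.6% of its peaks, so its peaks should not be taken as sites that all hold a motif. Tool versions are not given in the sources used here. The deposited mean signal is an average of counts after division by size factors. The deposited log2 fold change sets senescent against non-senescent libraries, with its SE. The deposited Wald score is the ratio of these 2 values, and the deposited p-value and adjusted p-value are the authors' own. The deposited lists of enhancers and Rb regions hold positions alone. The tables give no counts per library, so the count test in the design was replaced by the study's thresholds on the deposited values, without a new model. Division by size factors hides any shift of a mark common to all peaks. Depth per library is unknown from these values, and no counting interval was made.

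Start sites were those of protein-coding transcripts in GENCODE 44 on hg38, and overlaps needed 1 bp. Starts in the tables were read as counted from 0 and are printed counted from 1. Intervals are 95% normal intervals from the SE. The GC trend was the median log2 fold change in 50 bins of GC content, and for H3K27ac it was added after seeing the data. Full values are given for called promoter peaks, for up to 10 called peaks per mark and direction in order of adjusted p, and for up to 4 in the list of 62 genes. The members, the lists and this rule were chosen with earlier results of these data known. Calls, adjustment and trend were tested on simulated data. Other thresholds, a count minimum, other assignment of peaks and other scalings were tried as alternatives. Python 3.11.15, numpy 2.4.6, pandas 2.3.3, scipy 1.17.1, pysam 0.24.0, samtools 1.23.1 and matplotlib 3.10.9 were used.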

Additional observations from a re-analysis of the deposited data

How the results depend on the processing

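No call reversed its direction under any alternative. No paired analysis was possible because the deposited tables hold 1 value per peak over all libraries, and for the same reason leaving out single replicates was not run. Of the 8 gained and 14 lost H3K27ac peaks, 3 and 5 remained above a fold change of 2, 1 and 3 under a test against a fold change of 1.5, and 4 and 6 with promoter and in-gene peaks alone; at promoters a fold change above 2 left 1 lost peak, the test against 1.5 left 0 gained and 1 lost, and subtracting the GC trend gave 2 gained (WNT5B and APC). For CTCF, of 2 gained, 10 lost and 6 lost promoter peaks, an adjusted p under 0.05 left 0, 3 and 2, a fold change above 2 left 0, 5 and 3, the test against 1.5 left 0 of each, subtracting the GC trend left 1, 1 and 0, and requiring the core motif left 0, 2 and 1. A mean count of at least 50 left 4 lost CTCF peaks and 2 at promoters, and adjustment over every peak, or promoter and in-gene peaks alone, left 1 gained. The median CTCF log2 fold change at Wnt genes (-0.16) was -0.039 with the GC trend subtracted, -0.058 with 1 peak per gene and -0.061 at a mean count of at least 50, and the H3K27ac median (-0.037) was -0.136 with 1 peak per gene and -0.106 at that count. The cause was not tested for the values that moved. The other 50 counts and medians stayed within 1.5 times the reported value. With adjustment over every peak the CTCF calls at TCF7, at WNT5A and at WNT6 and WNT10A were no longer made, and 8 promoter peaks in place of 6 were called lost. Of the 22 called H3K27ac peaks 20 kept their call with the GC trend subtracted, and of the 12 called CTCF peaks 2 did.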
